A study of Mus musculus with 4 samples.

Results

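The miR-221/miR-222 cluster consists of 2 microRNA hairpins on the mouse X chromosome, and its 4 mature arms are mmu-miR-221-5p, mmu-miR-221-3p, mmu-miR-222-5p and mmu-miR-222-3p. All 4 were found among the 1326 mature miRNAs listed for these libraries, and 3 of them passed the filter on low counts (10 or more counts in at least 2 libraries) that left 584 miRNAs for testing. The cluster was chosen by the measured decrease of miR-222-3p in retinas without functional Ptf1a. The fold change of miR-222-3p is therefore a description here and carries no test, and the question was whether its cluster partner miR-221-3p followed it. Of the arms whose change did not enter the choice, miR-221-3p and miR-221-5p could be tested, and miR-222-5p was too rare.

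The libraries were made from RNA of 18 to 30 nt from mouse retina at embryonic day E18.5. One genotype was Ptf1a+/-, with a single functional copy of Ptf1a (2 libraries), and the other Ptf1a-/-, with none (2 libraries). Ptf1a encodes a transcription factor that retinal progenitors need to form amacrine and horizontal cells. No wild-type retina is among these groups, and the labels give neither the sex of the embryos nor whether replicates came from separate animals, so every p-value refers to the scatter of these 4 libraries and that scatter may be purely technical.

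MiRNAs are cut from hairpin precursors, and each hairpin can release a mature strand from its 5′ arm (5p) and from its 3′ arm (3p). The retained strand finds target mRNAs mainly through its seed, a short stretch near its 5′ end. miR-221-3p and miR-222-3p are known for repressing Cdkn1b, an inhibitor of the cell cycle, and Kit, a receptor tyrosine kinase, and for their presence in endothelial and vascular smooth muscle cells. In the frog retina miR-222 has been reported, with miR-129, miR-155 and miR-214, to hold back translation of Otx2 and Vsx1, transcription factor genes of late retinal cell types.

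RefSeq (GRCm38.p6) places both hairpins on the minus strand, Mir222 at chrX:19146893-19146971 and Mir221 at chrX:19146294-19146388, with 504 bases between them. In GENCODE M21 (GRCm38) no other annotated gene overlaps the interval. The nearest gene on the upstream side is the noncoding transcript Gm14636, on the same strand and 10009 bases away. The hairpins are shown to make clear where the counted arms lie, with the arms that RefSeq annotates in capitals. RefSeq gave a mature sequence for 3 of the 4 arms, miR-222-5p being the other.
Mir221: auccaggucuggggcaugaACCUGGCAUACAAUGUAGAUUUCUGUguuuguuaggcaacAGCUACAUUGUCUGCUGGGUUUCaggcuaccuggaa
Mir222: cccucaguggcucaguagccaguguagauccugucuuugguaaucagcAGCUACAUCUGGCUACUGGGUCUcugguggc

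The mature sequences show why the 3p arms are usually treated as a pair. Capitals mark the seed, bases 2 to 8 counted from the 5′ end. The 3p arms share the seed and their first 8 bases, and aligned at base 1 they match at 11 of 23 positions. The 5p arm of miR-221 has another seed.
mmu-miR-221-3p: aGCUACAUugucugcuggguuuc
mmu-miR-222-3p: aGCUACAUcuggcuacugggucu
mmu-miR-221-5p: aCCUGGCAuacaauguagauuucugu

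A further RefSeq miRNA, mmu-miR-1928, carries the same seed and was not analysed here. Beyond the shared start the 3p arms differ enough for a full-length read to be assigned to 1 of them. All counts of the 4 arms were whole numbers in the 4 libraries, unlike those of identical miRNAs such as miR-486a-5p and miR-486b-5p, whose equal counts were not all whole.

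The most frequent sequence of each arm, as the authors deposited it, was the same in both genotypes for the arms with more than 10 counts in every library. For miR-221-3p and miR-221-5p it equalled the RefSeq mature sequence in all 4 libraries. For miR-222-3p it was 25 bases long in all 4 libraries and ran 2 bases further at its 3′ end, shown in capitals, and these bases continue the hairpin sequence. The seed is the same in both forms. The sequence of miR-222-5p from Ptf1a+/- replicate 2 and Ptf1a-/- replicate 2 is shown with it, since RefSeq had none. Relative to the miRBase entry, per the file header, it lacked 1 base at its 5′ end and had the 2 capital bases added. The arm had 8 and 2 counts in these libraries, and in the other libraries, with 2 and 3 counts, the most frequent sequence did not match the hairpin.
most frequent miR-222-3p: agctacatctggctactgggtctCT
most frequent miR-222-5p: tcagtagccagtgtagatccTG

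The libraries held 3647145 to 4385834 listed counts. Levels are given as CPM, the usual counts per 1 M, on libraries scaled by TMM, edgeR's method that assumes most miRNAs unchanged. The 5 retinal markers set for the tissue, miR-124-3p, miR-9-5p, miR-182-5p, miR-183-5p and miR-96-5p, were all present, and miR-9-5p alone stood at 193585 CPM or more in every library. Their summed level was 340335 and 337102 CPM in Ptf1a+/- and 363534 and 517960 CPM in Ptf1a-/-. Thus Ptf1a-/- replicate 2 stood apart, and it also had the lowest TMM factor (0.829 against 1.06 to 1.07). The part of this in the results was not tested. The 5 markers did not move together. The log2 fold changes in Ptf1a-/- were 0.38 ± 0.20 (SE) for miR-9-5p, 0.37 ± 0.27 for miR-182-5p and 0.48 ± 0.21 for miR-183-5p. They were -0.34 ± 0.15 for miR-96-5p and -0.15 ± 0.13 for miR-124-3p. A test across all 584 miRNAs (edgeR's quasi-likelihood test, Benjamini-Hochberg adjustment) called 21 lower and 36 higher in Ptf1a-/- at an adjusted p under 0.05, which is 3.60 and 6.16% of those tested. These counts depend on the close pair of Ptf1a+/- libraries: without replicate 1 or replicate 2 of Ptf1a+/- 5 and 1 miRNAs were called, and without replicate 1 or replicate 2 of Ptf1a-/- 263 and 274, or 45.0 and 46.9%. DESeq2 called 60 (10.3%) and limma on the deposited CPM 28 (4.79%). Of the 3 arms tested, the lower calls held 1, miR-222-3p, by which the cluster was chosen, and the higher calls held none.

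miR-222-3p was lower in both Ptf1a-/- libraries. The Ptf1a+/- libraries held 601 (replicate 1) and 755 (replicate 2) of its counts, the Ptf1a-/- libraries 429 and 323. As levels these were 155.2 and 160.6 CPM in Ptf1a+/-, and 111 and 99.5 CPM in Ptf1a-/-. The genotypes did not overlap, and the Ptf1a-/- mean of 105 ± 7.98 CPM was 66.5% of the Ptf1a+/- mean of 158 ± 3.80 CPM (SD, n = 2 each). The fitted log2 fold change was -0.59 ± 0.13 (SE). In whole-tissue libraries such as these, fewer cells of a type and less RNA per cell cannot be told apart. Against the Ptf1a+/- mean the difference was -0.51 on the log2 scale in Ptf1a-/- replicate 1 and -0.67 in replicate 2. The threshold of the lower calls is set on the adjusted p and not on the fold change. Just inside it stood miR-217-5p (edgeR adjusted p = 0.0499, log2 fold change -0.76). Just outside stood miR-346-5p (edgeR adjusted p = 0.0555, log2 fold change -0.64). The decrease had the same sign in all 14 alternative analyses, from -0.93 to -0.49, and in 10 of them miR-222-3p was not called. Since this decrease chose the cluster, the shared sign is a description and no support.

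The partner miR-221-3p did not pass the test. Its counts were 699 (replicate 1) and 845 (replicate 2) in the Ptf1a+/- libraries, against 784 and 566 in the Ptf1a-/- libraries. The levels were 181 and 180 CPM in Ptf1a+/-, and 202 and 174 CPM in Ptf1a-/-. One Ptf1a-/- library thus lay above the Ptf1a+/- pair and the other below it. The means were 180 ± 0.559 CPM in Ptf1a+/- and 188 ± 19.9 CPM in Ptf1a-/- (SD, n = 2 each). The log2 fold change was 0.07 ± 0.13 (SE, edgeR adjusted p = 0.797), with a 95% interval of -0.25 to 0.38. The fitted value of miR-222-3p lies outside this interval, as a description, since that value was chosen for being low. The sign for miR-221-3p is not fixed: it was -0.10 with library size as the only scaling and -0.28 with the authors' CPM, scalings that move the median of all miRNAs to -0.18 and -0.33. Relative to the median of all miRNAs miR-221-3p stood at 0.07 with TMM, 0.07 with library size only and 0.05 on the deposited CPM, but at -0.13 on the deposited CPM with no filter on low values. Without Ptf1a-/- replicate 2 it was called higher (0.19, edgeR adjusted p = 0.0112), and without Ptf1a-/- replicate 1 it stood at -0.05, or -0.0029 relative to the median of all miRNAs. In these fits the lone Ptf1a-/- library is assumed to vary like the Ptf1a+/- pair.

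**Figure D1:**
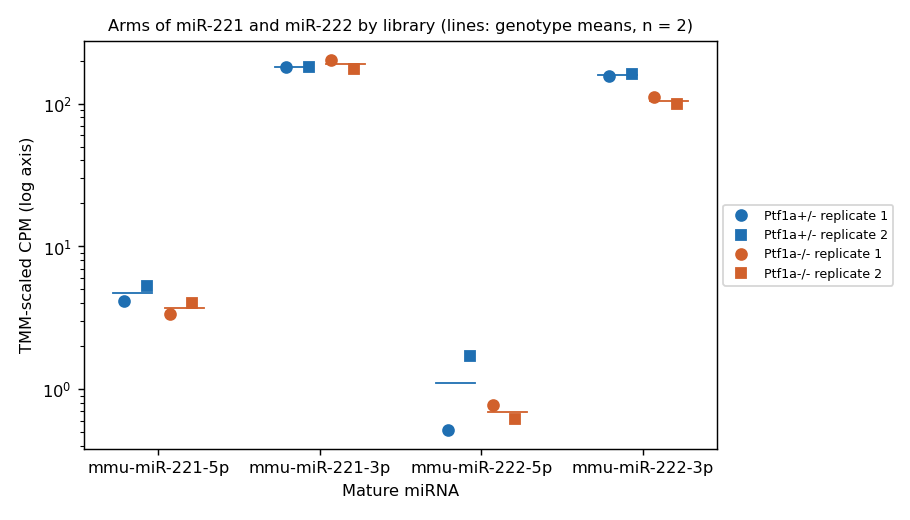
TMM-scaled CPM on a log axis for the 4 arms in each of the 4 libraries, with blue for Ptf1a+/-, orange for Ptf1a-/-, circles for replicate 1, squares for replicate 2 and lines at the genotype means. The miR-222-3p points of Ptf1a-/-, at 111 and 99.5 CPM, lie below the Ptf1a+/- points, while those of miR-221-3p, at 202 and 174 CPM, lie on either side of them.

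The 5p arms were rare. miR-221-5p had 16 and 25 counts in Ptf1a+/- and 13 and 13 in Ptf1a-/-, or 4.13, 5.32, 3.36 and 4.0 CPM. Both Ptf1a-/- libraries lay below both Ptf1a+/- libraries, as they did for 31.5% of all 584 miRNAs. The log2 fold change was -0.38 ± 0.33 (SE, edgeR adjusted p = 0.522), with a 95% interval of -1.19 to 0.42, so a decrease as large as that of miR-222-3p could not be told from none at this depth. miR-222-5p had 2 and 8 counts in Ptf1a+/- and 3 and 2 in Ptf1a-/-, and the libraries of the genotypes overlapped. The ratio of its summed counts, 5 against 10, scaled to the TMM-adjusted library sizes was 0.602 with an exact 95% counting interval of 0.161 to 1.93 (counting error only). The level of this arm was therefore too low to show whether it moved with the 3p arm of its own hairpin.

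Within each hairpin almost all reads came from the 3p arm, in both genotypes. The 3p arm gave 97.8 and 97.1% of the reads of miR-221 in the Ptf1a+/- libraries, against 98.4 and 97.8% in the Ptf1a-/- libraries. For miR-222 the shares were 99.7 and 99.0% in Ptf1a+/-, and 99.3 and 99.4% in Ptf1a-/-. The exact 95% intervals (Clopper-Pearson) of the 4 libraries overlapped for each hairpin, spanning 95.8 to 99.1% for miR-221 and 97.8 to 99.96% for miR-222. The intervals cover counting error only, and a difference in the share of the arms between genotypes was not tested.

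The ratio of the 3p arms within a library does not depend on how libraries are scaled against each other. In Ptf1a+/- there were 1.16 and 1.12 counts of miR-221-3p for each count of miR-222-3p, with exact 95% counting intervals of 1.04 to 1.30 and 1.01 to 1.24. In Ptf1a-/- the ratios were 1.83 and 1.75, with intervals of 1.62 to 2.06 and 1.53 to 2.02. The intervals cover counting error within a library and not the spread between samples. The mean ratio was 1.14 ± 0.0310 in Ptf1a+/- and 1.79 ± 0.0532 in Ptf1a-/- (SD, n = 2 each), 1.57 times as high. The mean log2 ratio differed between genotypes by 0.65, with an SD of 0.039 within Ptf1a+/- and 0.043 within Ptf1a-/- (n = 2 each). The difference was 0.62 to 0.68 when a library was left out in turn or the deposited CPM were used. The higher ratio in Ptf1a-/- is a description with no test, since its denominator is miR-222-3p, whose low level there chose the cluster, and with 2 libraries a genotype the smallest p of an exact two-sided permutation test is 0.333. Summed over both arms, reads with their shared seed stood at 338 ± 3.24 CPM in Ptf1a+/- and 293 ± 27.8 CPM in Ptf1a-/-. miR-221-3p made up 53.3% of that sum in Ptf1a+/- and 64.2% in Ptf1a-/-.

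**Figure D2:**
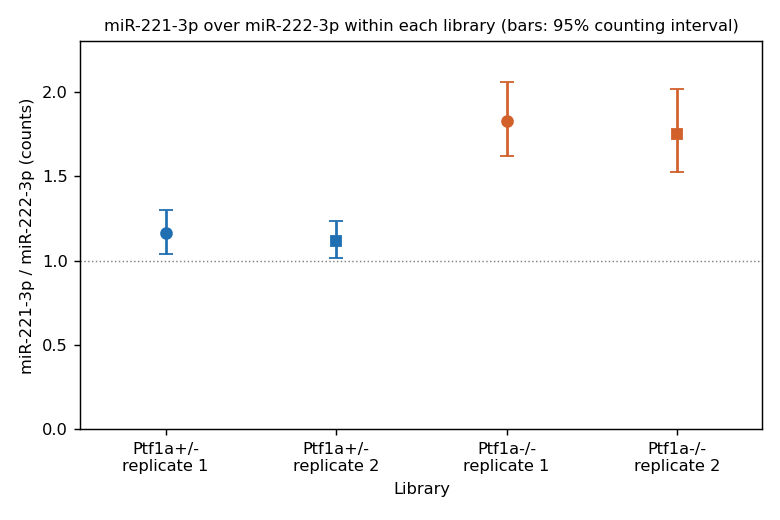
Counts of miR-221-3p divided by counts of miR-222-3p in each library, on a linear axis from 0, with exact 95% counting intervals. The Ptf1a+/- libraries sit at 1.16 and 1.12 and the Ptf1a-/- libraries at 1.83 and 1.75, as a description, since miR-222-3p chose the cluster.

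By mean level over the 4 libraries miR-221-3p ranked 162 and miR-222-3p 182 of the 584 miRNAs tested, and miR-221-5p ranked 506. In Ptf1a+/- the 3p arms lay close to each other, at 180 and 158 CPM, as counted; how well the library preparation captures each sequence was not tested.

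**Figure D3:**
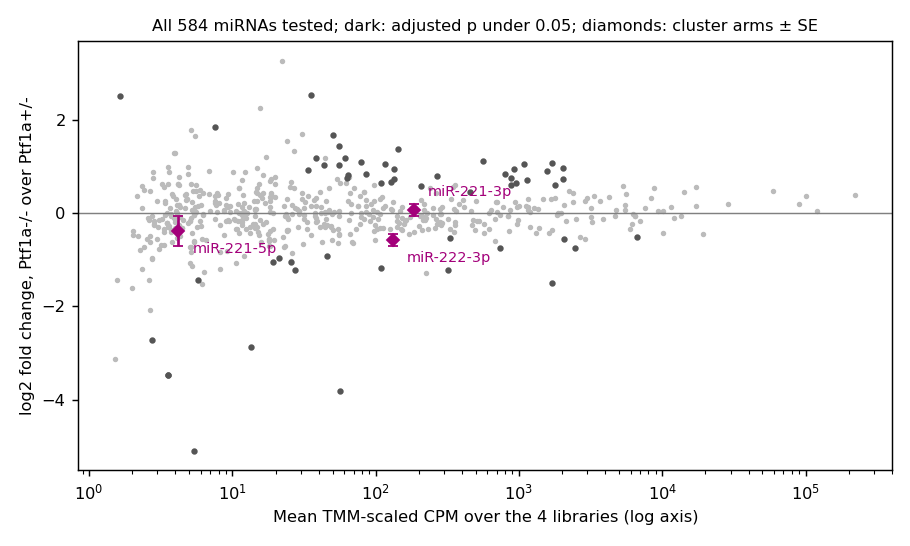
Log2 fold change of Ptf1a-/- over Ptf1a+/- against mean TMM-scaled CPM (log axis) for the 584 miRNAs tested, with called miRNAs in dark grey and the cluster arms as diamonds with SE. miR-221-3p lies at 0.07, miR-221-5p at -0.38 and miR-222-3p at -0.59, the last by the choice of the cluster.

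The profiles of the 3p arms over the 4 libraries had different neighbours. Likeness was measured as the Euclidean distance between values of log2(CPM + 0.5), each centred on its own mean over the 4 libraries, among 581 other miRNAs. Nearest to miR-222-3p were miR-1251-5p (distance 0.0963), miR-125a-5p (0.105), miR-18a-3p (0.114), miR-93-3p (0.116) and miR-149-5p (0.159). Being picked for this likeness fixed their direction, and their log2 fold changes were -0.67, -0.52, -0.61, -0.63 and -0.44. The most abundant of them, miR-125a-5p, had 7867 and 7928 CPM in Ptf1a+/-, and 5619 and 5426 CPM in Ptf1a-/-. Nearest to miR-221-3p were miR-708-5p (distance 0.0222), miR-30e-5p (0.0338), miR-9-3p (0.0444), miR-16-5p (0.0462) and miR-15a-5p (0.0709). Their log2 fold changes lay between 0.05 and 0.08, and each was highest in Ptf1a-/- replicate 1. The distance between miR-221-3p and miR-222-3p was 0.650. By it miR-221-3p stood at place 239 among the neighbours of miR-222-3p, and miR-222-3p at place 380 among those of miR-221-3p. The decrease of miR-222-3p that chose the cluster enters this distance, so it is a description and no support. The distances describe 4 libraries and were not tested.

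**Figure D4:**
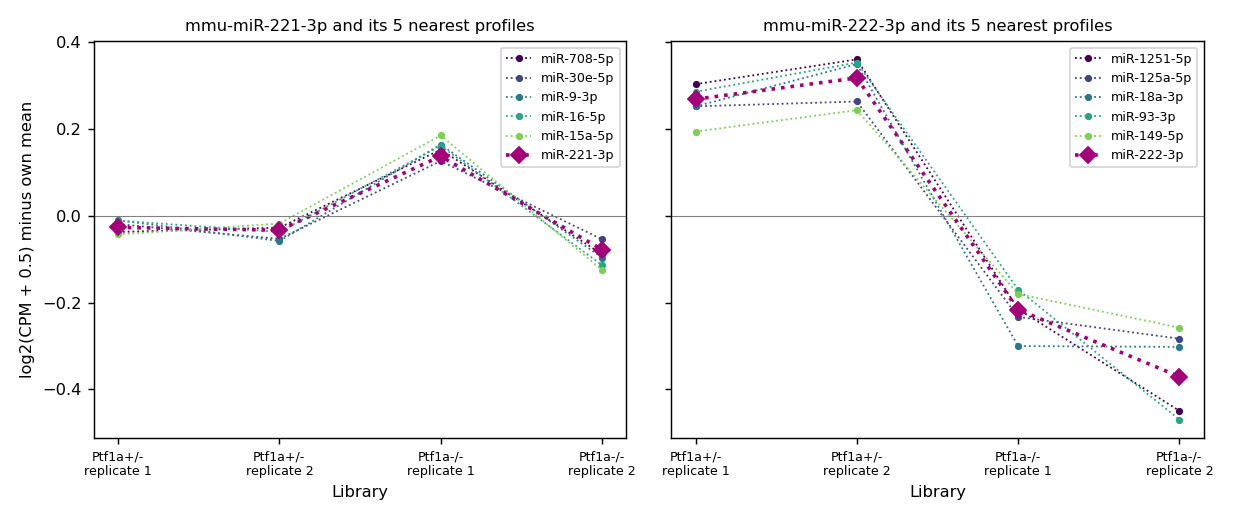
log2(CPM + 0.5) minus its own mean over the 4 libraries, for miR-221-3p (left) and miR-222-3p (right) as diamonds, each with its 5 nearest miRNAs as dots. The dotted lines only join values of 1 miRNA. The left profiles peak in Ptf1a-/- replicate 1, and the right ones are high in both Ptf1a+/- libraries and low in both Ptf1a-/- libraries.

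Other miRNAs of the X chromosome, taken from the RefSeq table as those whose every precursor lies there, gave no call with edgeR. Of 47 tested, edgeR called 0, with 4 at an unadjusted p under 0.05. Of all 584, edgeR called 57, with 148 at an unadjusted p under 0.05, to be set beside this list and the later ones. DESeq2 called 2 of the 47, miR-351-5p lower and miR-2137 higher (15 and 31 counts in Ptf1a+/-, 39 and 137 in Ptf1a-/-), and limma on the deposited CPM none. Among all 584 miRNAs DESeq2 called 10.3% and limma on the deposited CPM 4.79%. Their median log2 fold change was 0.05, beside -0.003 for all 584. The closest to a call was miR-351-5p, from the locus of Mir322, Mir503 and Mir351, with 838 and 798 CPM in Ptf1a+/- and 609 and 474 CPM in Ptf1a-/- (log2 fold change -0.59 ± 0.15, edgeR adjusted p = 0.0638). miR-351-3p, from the same hairpin, stood at -1.07 ± 0.35 (edgeR adjusted p = 0.121). The most abundant X-linked miRNA, miR-98-5p, a let-7 relative, had 1340 and 1299 CPM in Ptf1a+/- and 1367 and 1435 CPM in Ptf1a-/- (0.09 ± 0.10, edgeR adjusted p = 0.666), and miR-361-3p stood at -0.07 ± 0.18 (0.837). Without Ptf1a-/- replicate 1 or replicate 2, 18 and 20 of the 47 were called, where 45.0 and 46.9% of all miRNAs were called. The fitted values of arms of 1 locus were also spread elsewhere on the chromosome. The 11 tested arms of the locus of Mir322 ran from -1.07 to 0.41. Those of the locus from Mir500 to Mir532, 7 in number, ran from -0.58 to 0.63. None of these arms was called by edgeR in all 4 libraries. The arms at the ends of both ranges were rare (means of 3.54 to 10.6 CPM), with SE of 0.30 to 0.46. Whether these spreads exceed the error of the fits was not tested.

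**Figure D5:**
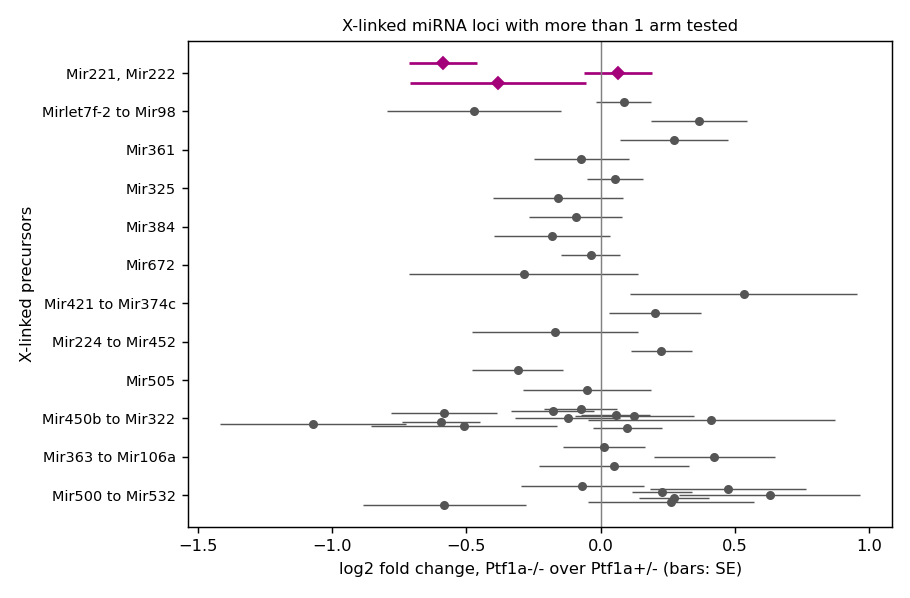
Log2 fold changes of Ptf1a-/- over Ptf1a+/- with SE for X-linked loci with more than 1 arm tested, where precursors with gaps of at most 10000 bases form 1 locus. Grey points are other loci and diamonds the miR-221/miR-222 arms, which run from -0.59 to 0.07.

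The miRNAs reported with miR-222 in the frog retina were measured in part. Of 6 listed arms of miR-129, miR-155 and miR-214, 2 could be tested, and edgeR called neither (1 at an unadjusted p under 0.05; 0 by DESeq2 and 0 by limma on the deposited CPM). miR-155-5p had 56 and 78 counts in Ptf1a+/- and 22 and 36 in Ptf1a-/-, a log2 fold change of -0.93 ± 0.34 (SE, edgeR adjusted p = 0.164). miR-129-5p stood at 1510 and 1546 CPM in Ptf1a+/- and 1058 and 1392 CPM in Ptf1a-/-, a log2 fold change of -0.32 ± 0.15 (adjusted p = 0.259). For each of them the Ptf1a-/- pair lay entirely under the Ptf1a+/- pair, as for 31.5% of all miRNAs. Without Ptf1a-/- replicate 1 or replicate 2, 1 and 2 of them were called, where 45.0 and 46.9% of all miRNAs were called. miR-214-3p had 2 and 5 counts in Ptf1a+/- and 0 and 4 in Ptf1a-/-, at or near the level that a count of 0 allows (0.638 to 0.924 CPM at 3 counts).

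The miR-17/92 paralog clusters accompany proliferation, as the Cdkn1b-targeting 3p arms of this cluster do. Of their 20 tested arms edgeR called none (4 at an unadjusted p under 0.05; 0 by DESeq2 and 0 by limma on the deposited CPM), with a median log2 fold change of 0.01. miR-92a-3p stood at -0.10 ± 0.13 and miR-25-3p at 0.04 ± 0.16 (SE, edgeR adjusted p = 0.707 and 0.903). The smallest p-values were those of miR-18a-3p (-0.61 ± 0.16, adjusted p = 0.0779) and miR-93-3p (-0.63 ± 0.17, adjusted p = 0.0811). Without Ptf1a-/- replicate 1 or replicate 2, 12 and 13 of the 20 were called, where 45.0 and 46.9% of all miRNAs were called.

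Markers of vessels and mural cells were measured because those cells carry both miRNAs. Of 6 markers 3 could be tested, and edgeR called none (1 at an unadjusted p under 0.05; 0 by DESeq2 and 1, miR-143-3p, by limma on the deposited CPM). Without Ptf1a-/- replicate 1 or replicate 2, 1 and 2 of the 3 were called, where 45.0 and 46.9% of all miRNAs were called. Their summed level was 593 and 614 CPM in Ptf1a+/-, and 352 and 588 CPM in Ptf1a-/- replicates 1 and 2. The endothelial miR-126a-3p made up most of it, with 546 and 564 CPM against 324 and 545 CPM (log2 fold change -0.35 ± 0.24, edgeR adjusted p = 0.416). miR-126a-5p, from the other arm of that hairpin, had 12.9 and 15.3 CPM in Ptf1a+/- and 14.5 and 21.2 CPM in Ptf1a-/- (0.31 ± 0.28, adjusted p = 0.530). The mural miR-143-3p had 33.8 and 34.3 CPM in Ptf1a+/- and 13.2 and 20.6 CPM in Ptf1a-/- (-1.03 ± 0.25, adjusted p = 0.0637), while miR-145a-5p had 1 count in all libraries together. The part of vascular cells in the miR-222-3p level was not tested.

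Of the other cell type markers, those of pigment epithelium summed to 3690 and 3729 CPM in Ptf1a+/- and 3204 and 3566 CPM in Ptf1a-/-. Of 3 tested, 1 was called lower, miR-204-3p (-0.54 ± 0.12, edgeR adjusted p = 0.0436, called in 3 of 14 alternatives). Among all 584 miRNAs edgeR called 3.60% lower, the share to set beside this list and the next. The abundant miR-204-5p stood at -0.09 ± 0.11 and miR-211-5p at -0.35 ± 0.29 (edgeR adjusted p = 0.686 and 0.509). Lens and surface epithelium markers summed to 305 and 292 CPM in Ptf1a+/- and 227 and 301 CPM in Ptf1a-/-, and 1 of 3 tested, miR-200b-3p, fell, from 25 and 31 counts in Ptf1a+/- to 1 and 3 in Ptf1a-/- (edgeR adjusted p = 0.0124; called in 10 of 13 alternatives). miR-203-3p had 100.2 and 90.6 CPM in Ptf1a+/- and 124.4 and 110.5 CPM in Ptf1a-/- (0.30 ± 0.14, edgeR adjusted p = 0.244), and miR-184-3p stood at -0.44 ± 0.28 (0.388). Blood cell markers summed to 146 and 140 CPM in Ptf1a+/- and 127 and 192 CPM in Ptf1a-/-, and neither miR-486a-5p nor miR-486b-5p, the 2 tested, was called (0.15 ± 0.22, edgeR adjusted p = 0.737; 0 at an unadjusted p under 0.05, and 0 by DESeq2 and limma). The counts of miR-486a-5p and miR-486b-5p were equal in every library. The defining red cell marker miR-451a had 1 count at most in any library. The part of these tissues in the levels of the cluster was not tested.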

How the data were processed

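Small RNA libraries of 2 Ptf1a+/- and 2 Ptf1a-/- retina samples went through demultiplexing by bcl2fastq (version 2.20.0.422), as named per the submitters' processing notes. Aligner, counting tool and build: not given in the sources used here. Per the labels' protocols, RNA was selected by size on gels before and after reverse transcription, and no molecular identifiers are described, so counting intervals and limits cover counting error only. The authors' deposited table of raw values holds estimated counts, some not whole, which were rounded to whole numbers. Their deposited CPM divide the same counts by a larger library total of unstated content. The other deposited table gives, as other than numeric values, the most frequent sequence per miRNA, per the file headers.

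The test was edgeR 4.0.16's quasi-likelihood F test in R 4.3.3 on TMM-scaled counts with a single genotype term, over the miRNAs that reached 10 counts in 2 or more libraries, called at a Benjamini-Hochberg adjusted p under 0.05. SE and 95% intervals derive from the fit. A run on simulated data gave both genotypes the same spread and did not check the SE or the intervals. The planned test allowed for estimated counts, to be rounded to whole numbers. Of the tested names, 494 matched RefSeq mature miRNAs. Alternatives used DESeq2 1.42.0, limma 3.58.1 on log2(deposited CPM + 1), other scaling and filters, a replicate block, the Ptf1a+/- pair summed, and each library left out.

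The members, lists and tests were chosen with earlier results of these data known. Named miRNAs are the 4 arms, the 5 nearest profiles of each 3p arm, and from each list the 2 highest mean levels and the 2 smallest p-values. Outside this rule, miR-124-3p was named as a retinal marker and miR-1928 for its seed. After their values were seen, miR-126a-5p, miR-145a-5p, miR-214-3p, miR-451a, miR-2137 and those beside the threshold (miR-217-5p, miR-346-5p) were also named. So were miR-212-5p, miR-132-3p, miR-181a-1-3p, miR-181b-1-3p and let-7e-5p, from the neighbouring hairpins with the largest differences.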

Additional observations from a re-analysis of the deposited data

How the results depend on the processing

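Of the results on the cluster, the miR-221-5p comparison kept its sign in every alternative that could fit it. It also kept its side of the threshold there (edgeR, DESeq2 or limma adjusted p from 0.341 to 0.961). The genotype difference in the log2 ratio of miR-221-3p to miR-222-3p lay between 0.62 and 0.68 in its 5 alternatives. That range is a description and no support, since miR-222-3p chose the cluster and scaling between libraries cancels in a ratio within a library. The log2 fold change of miR-221-3p, 0.07, turned to -0.10 with library size as the only scaling and to -0.28 on the deposited CPM with a pseudocount of 1, with 0.25 and with no filter. Leaving out 1 library at a time gave -0.048 to 0.19 (edgeR adjusted p from 0.0112 to 0.963). That of miR-222-3p, -0.59, moved to -0.76 with library size only, and on the deposited CPM to -0.92 with a pseudocount of 1, -0.93 with 0.25 and -0.92 with no filter. The median of all miRNAs moved as well. It stood at -0.18 with library size only and at -0.33 on the deposited CPM with a pseudocount of 1. The cause of this shift was not tested. The small difference in the 3p share of miR-222, 0.04 percentage points, ranged from -0.32 to 0.39 when 1 library was left out.

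The number of miRNAs called, 57, was 16 with library size only, 21 with no filter on low counts, 1 with the Ptf1a+/- pair summed, and 28, 27 and 0 on the deposited CPM with a pseudocount of 1, with 0.25 and with no filter (the last with 199 at an unadjusted p under 0.05). It ranged from 1 to 274 when 1 library was left out. Higher calls were 63.2% of all with TMM, 25% with library size only and 3.57% on the deposited CPM. The labels number the replicates, but nothing ties equal numbers to each other, and deviations of same-numbered libraries from their genotype means correlated at 0.05 over the miRNAs tested. With the replicate block 12 miRNAs were called, and miR-221-3p stood at 0.06 (edgeR adjusted p = 0.843). miR-222-5p had too few counts for the main fit, and miR-221-5p for the filter of 50 counts.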

Other observations

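Other neighbouring hairpins were looked at for comparison, with limits chosen after the cluster's values were seen. Pairs on the same strand with a gap under 1000 bases were taken, each hairpin represented by its more abundant single-locus arm with a mean of 20 CPM or more. Some hairpins enter 2 pairs, so the 33 pairs are not independent. The log2 fold changes of miR-221-3p and miR-222-3p differed by 0.65. Among the other 32 pairs the difference ranged from 0.01 to 1.05 with a median of 0.28, and 6 pairs differed by more. The largest differences were those of miR-212-5p and miR-132-3p (0.09 and -0.96), miR-96-5p and miR-183-5p (-0.34 and 0.48), miR-181a-1-3p and miR-181b-1-3p (-0.23 and -1.04), and let-7e-5p and miR-125a-5p (0.24 and -0.52). Some pairs join a 5p with a 3p arm, and the differences carry no SE and were not tested. They therefore do not show whether unequal change is particular to the miR-221/miR-222 cluster.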
